A study of Mus musculus with 9 samples.

Results

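The RNA of 10 germline genes was followed through the cultures, 10 of the 19938 genes measured: Dazl, Ddx4, Stk31, Hormad1, Sycp1, Sycp3, Mael, Rnf17, Asz1 and Taf7l. They were chosen by gene symbol, as meiosis and piRNA genes whose promoters are known to be held silent by DNA methylation outside the germline. The choice was made with earlier results of these data known, so their counts beside all genes are no independent test. On the array 11 of the 35399 probe sets represented them, 1 for each gene and 2 for Hormad1. DNA methylation itself was not measured here, so the data cannot check that part of the description.

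Total RNA of mouse pluripotent stem cells was measured on 9 arrays, 3 for each of 3 cultures. Embryonic stem cells (ESCs), of strain 129, were kept in 2i, the common name for the GSK3 inhibitor CHIR99021 with the MEK inhibitor PD0325901. Epiblast stem cells (EpiSCs), of strain CD1, were kept either in CHIR99021 with the tankyrase inhibitor XAV939 (CHIR/XAV) or in FGF2 with activin. The labels give 3 µM CHIR99021, 1 µM PD0325901, 2 µM XAV939, 10 ng/ml FGF2 and 10 ng/ml activin in a single statement for all samples, and a basal medium with 10% fetal bovine serum that all cultures shared. No genotype, age or time in culture was used here. Whether the arrays of a group stem from separate cultures is not stated, and the p-values may therefore rest on technical spread alone. Strain goes with cell type, and PD0325901 is in the ESC medium only, so neither can be told apart from cell state in a comparison with ESCs. Pou5f1, shared by naive and primed cells, lay at 11.33 in ESCs, 11.59 in CHIR/XAV and 11.68 in FGF2/activin EpiSCs. The other shared markers were called lower in both EpiSC groups, Nanog at 12.37, 10.25 and 9.86 and Sox2 at 11.80, 11.03 and 11.32. The labels call the tissue of all 9 samples embryonic stem cell, but the naive marker Esrrb (10.08, 4.93 and 4.72) and the primed marker Fgf5 (5.25, 8.86 and 8.88) separated ESCs from EpiSCs in the same order of groups. Xist, the RNA of the inactive X chromosome, lay at 4.59, 9.12 and 4.38, and the Y-linked Eif2s3y at 9.15, 4.41 and 9.61. The Y-linked Uty went with Eif2s3y (8.84, 4.28 and 9.37), but the Y-linked Kdm5d was dim in ESCs too (4.75, 4.73 and 8.57). The EpiSC groups thus differed in sex-linked RNA as well as in medium, and an effect of medium and of cell line cannot be told apart between them. CHIR/XAV EpiSCs also differed from ESCs in Xist, Eif2s3y and Uty, which cannot be told apart from cell state there either.

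Germ cells divide their chromosomes by meiosis, for which homologous chromosomes are held together along their length by the synaptonemal complex, and they protect their genome from transposons with piRNAs, small RNAs bound by Piwi proteins. Many genes for both processes have CpG-rich promoters that become methylated when the epiblast implants, and ESCs in 2i are known for low DNA methylation. A non-canonical Polycomb complex that contains Mga, Max, E2f6 and Pcgf6 is known to repress many of the same genes, and it reaches promoters through the E-box hexamer CACGTG, bound by Mga and Max, and through E2F sites.

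Promoter windows from RefSeq (assembly GRCm38.p6) were available for 9 of the 10 genes, all but Rnf17. In the 250 bases before the start, 7 of these 9 genes held CACGTG, a palindrome that reads the same on either strand, against 6.86% of 27025 genes with a window and 6.02% of 32851 windows. Hormad1 and Sycp3 held 2 copies each, as did 0.429% of windows at that number or more. Dazl and Asz1 held none. The E2F-type octamer GGCGGGAA, searched on both strands and without overlap with the hexamer, lay in Hormad1 and Ddx4, against 2.13% of genes. CpG counts ran from 12 in Sycp3 to 31 in Ddx4 in the first window of each gene, where the median window held 6 and the upper quartile was 16. The Ddx4 window overlaps the annotated span of its own gene. These matches describe letters in a window and are no measurement of binding or methylation. The hexamer and the octamer each contain a CpG, and the shares of all genes and windows were not matched for CpG count. Both were added after the expression values were seen.

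The windows of 5 genes are shown because their RNA differed most from ESCs among genes whose window lies outside their own annotated span, and because they show the hexamer, in capitals, at different places in 4 genes and not at all in Dazl. Sycp3 (chr10:88459337-88459586, plus strand) and Mael (chr1:166238745-166238994, minus strand) were low in FGF2/activin EpiSCs alone, whereas Hormad1 (chr3:95559427-95559676, plus strand), Sycp1 (chr3:102936101-102936350, minus strand) and Dazl (chr17:50293621-50293870, minus strand) were low in both EpiSC groups. All are written 5′ to 3′ and end at the base before the start.
Sycp3: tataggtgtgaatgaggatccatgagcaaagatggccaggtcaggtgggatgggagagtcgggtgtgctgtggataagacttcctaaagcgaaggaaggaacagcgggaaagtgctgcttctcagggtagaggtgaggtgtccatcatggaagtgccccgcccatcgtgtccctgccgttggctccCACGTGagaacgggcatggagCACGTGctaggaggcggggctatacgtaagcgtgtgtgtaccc
Mael: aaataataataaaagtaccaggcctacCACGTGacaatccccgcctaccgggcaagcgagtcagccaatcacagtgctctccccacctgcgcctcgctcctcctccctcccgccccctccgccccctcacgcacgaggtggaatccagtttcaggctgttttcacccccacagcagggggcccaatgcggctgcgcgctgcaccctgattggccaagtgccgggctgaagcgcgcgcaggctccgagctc
Hormad1: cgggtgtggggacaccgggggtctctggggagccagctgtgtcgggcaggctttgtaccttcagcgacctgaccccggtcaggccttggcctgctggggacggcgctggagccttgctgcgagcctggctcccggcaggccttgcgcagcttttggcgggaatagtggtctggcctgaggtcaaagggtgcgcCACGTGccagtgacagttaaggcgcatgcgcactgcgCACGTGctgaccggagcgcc
Sycp1: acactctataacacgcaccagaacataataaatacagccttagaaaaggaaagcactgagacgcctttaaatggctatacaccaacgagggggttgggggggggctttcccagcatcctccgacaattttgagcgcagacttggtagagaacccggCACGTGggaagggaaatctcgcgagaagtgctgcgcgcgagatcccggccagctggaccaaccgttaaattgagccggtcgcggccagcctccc
Dazl: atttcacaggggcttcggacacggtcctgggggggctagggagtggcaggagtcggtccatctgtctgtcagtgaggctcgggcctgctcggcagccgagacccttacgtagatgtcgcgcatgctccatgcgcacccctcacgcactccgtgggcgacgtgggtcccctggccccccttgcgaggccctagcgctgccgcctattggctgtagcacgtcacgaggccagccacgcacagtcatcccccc

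Measured to its near end, the hexamer lay 38 and 59 bases before the start of Sycp3, 15 and 52 before that of Hormad1, 89 before that of Sycp1 and 218 before that of Mael. In the genes not printed it lay 24 bases before the start of Ddx4, 50 before that of Stk31 and 44 before that of Taf7l. Ddx4 was not printed because its window overlaps its own annotated span. Genes with the hexamer were found among those low in both EpiSC groups and among those low in FGF2/activin EpiSCs alone. Only Dazl and Asz1 lacked the hexamer and Rnf17 had no window, so these few genes cannot show whether it goes with a pattern. Its part in the levels was not tested.

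**Figure D1:**
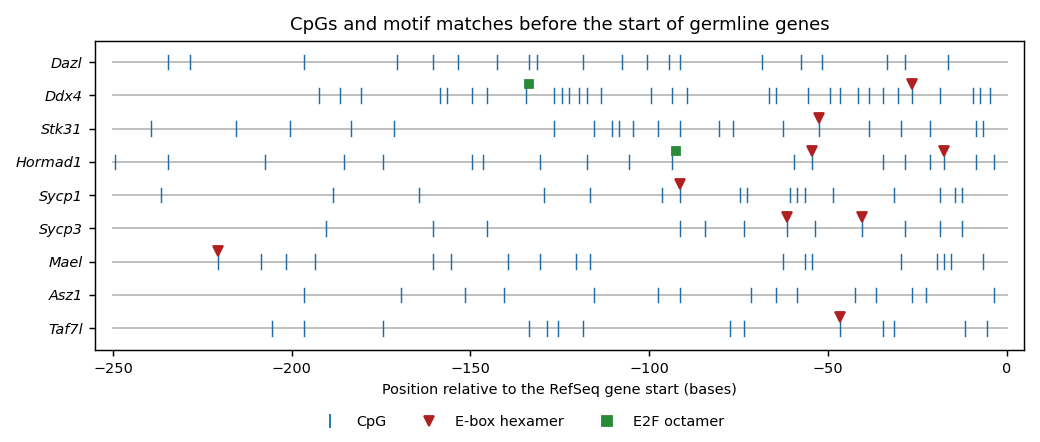
Positions of CpGs (blue ticks), the hexamer CACGTG (red triangles) and the E2F-type octamer (green squares) in the 250 bases before the RefSeq start of 9 germline genes, with the start at 0 on the x axis. The hexamer sits within 100 bases of the start in all 7 genes that hold it except Mael, where it lies 218 bases away. The Ddx4 window overlaps the annotated span of its own gene.

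Across the cultures the genes fell into 3 patterns. Dazl, Ddx4, Hormad1, Sycp1 and Stk31 were higher in ESCs than in both EpiSC groups, Stk31 from an ESC level near the array median. Sycp3, Mael and Rnf17 were high in ESCs and in CHIR/XAV EpiSCs and low in FGF2/activin EpiSCs. Asz1 and Taf7l were dim in all 3 cultures. Values are log2 expression from RMA, on which 1 unit is 2-fold, and array medians lay between 5.57 and 5.65. Dim values cannot be told from background here, so a change that ends at such a level may be understated. In RNA from whole cultures, fewer cells that express a gene and less RNA in each cell cannot be told apart.

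**Figure D2:**
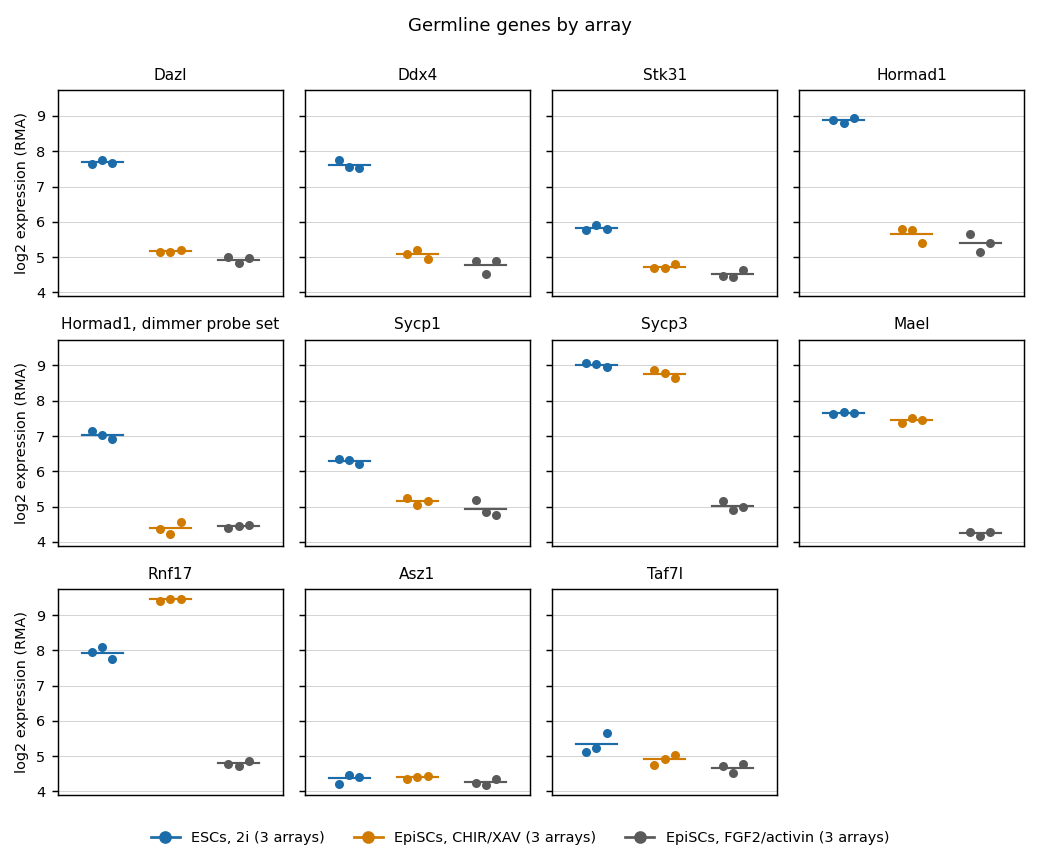
log2 expression of the 11 probe sets on each of the 9 arrays (points), with the group mean as a line, for ESCs in 2i (blue), CHIR/XAV EpiSCs (orange) and FGF2/activin EpiSCs (grey). Sycp3, Mael and Rnf17 stay at 7.36 or above on the orange arrays and at 5.16 or below on the grey ones, while Dazl, Ddx4 and Hormad1 are high on the blue arrays only.

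In CHIR/XAV EpiSCs 8 of the 10 genes were lower than in ESCs and 1 was higher (limma, Benjamini-Hochberg adjusted p under 0.05 over 19938 genes), where 22.1% of all genes were called lower, 24.7% higher and 46.7% either way. At 2-fold or more 5 were lower and 1 higher, against 3.30% and 5.03% of all genes. Their median difference was -0.76, against -0.03 over all genes. In FGF2/activin EpiSCs 9 were lower than in ESCs and none higher, where 33.5% of all genes were called lower (25.1% after median centring), 27.8% higher and 61.3% either way. At 2-fold or more 8 were lower, against 3.45% of all genes, and none was higher, against 6.66%. All 10 differences were negative, and the median difference was -2.80, against -0.08 over all genes. Both comparisons use the same 3 ESC arrays. Of the calls as deposited 45.3% were higher in FGF2/activin EpiSCs, and 55.1% after median centring.

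Dazl encodes an RNA-binding protein that germ cells need for translation and survival. Its values were 7.63, 7.75 and 7.67 in ESCs, 5.16, 5.15 and 5.21 in CHIR/XAV EpiSCs and 5.0, 4.83 and 4.97 in FGF2/activin EpiSCs. All ESC arrays lay far above all EpiSC arrays, and the EpiSC groups lay close together without overlap. On the log2 scale Dazl fell by 2.51 in CHIR/XAV EpiSCs, a change of 5.68-fold (SE 0.07, adjusted p = 1.03e-12, limma), and fell by 2.75 in FGF2/activin EpiSCs (adjusted p = 2.84e-13, limma), or 6.73-fold.

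Ddx4, the mouse Vasa homologue, is an RNA helicase of the germ granule. It read 7.74, 7.55 and 7.54 in ESCs, 5.09, 5.21 and 4.94 in CHIR/XAV EpiSCs, and 4.89, 4.53 and 4.88 in FGF2/activin EpiSCs. The pattern was nearly that of Dazl: with each gene centred on its own mean, their values differed by a root mean square of 0.13 over the 9 arrays, the smallest distance between any pair of the 10 genes. Ddx4 fell by 2.53 (SE 0.10, adjusted p = 7.48e-11, limma) and fell by 2.85 (adjusted p = 1.58e-11, limma) in the respective EpiSC groups. Stk31, a germ cell protein with a tudor domain and a kinase domain, was dimmer, at 5.76, 5.90 and 5.79 in ESCs against 4.68, 4.68 and 4.80 in CHIR/XAV and 4.48, 4.45 and 4.64 in FGF2/activin EpiSCs. It fell by 1.09 (SE 0.07, adjusted p = 1.75e-08, limma) and fell by 1.29 (adjusted p = 2.16e-09, limma). Its ESC arrays stood near the array median, and its EpiSC arrays about 1 unit below it.

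Hormad1 encodes a HORMA-domain protein of unsynapsed chromosome axes. On its brighter probe set (10494281) it read 8.89, 8.79 and 8.95 in ESCs, 5.80, 5.77 and 5.40 in CHIR/XAV EpiSCs and 5.66, 5.16 and 5.39 in FGF2/activin EpiSCs. The EpiSC groups overlapped, and every ESC array lay far above both. Hormad1 fell by 3.22, or 9.31-fold (SE 0.12, adjusted p = 3.46e-11, limma), and fell by 3.47, or 11.1-fold (adjusted p = 1.15e-11, limma). The second probe set (10536427), at 7.14, 7.04 and 6.92 in ESCs, moved the same way: it fell by 2.64 in CHIR/XAV EpiSCs and fell by 2.60 in FGF2/activin EpiSCs. Sycp1, the transverse filament protein that bridges paired chromosomes, was at 6.34, 6.33 and 6.22 in ESCs, 5.26, 5.06 and 5.15 in CHIR/XAV EpiSCs and 5.18, 4.85 and 4.77 in FGF2/activin EpiSCs. It fell by 1.14 (SE 0.10, adjusted p = 2.38e-07, limma) and fell by 1.36 (adjusted p = 2.84e-08, limma).

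Sycp3, a protein of the axial elements of the synaptonemal complex, followed another course than its partner Sycp1. Its values were 9.06, 9.05 and 8.95 in ESCs and 8.87, 8.78 and 8.64 in CHIR/XAV EpiSCs, but 5.16, 4.90 and 4.98 in FGF2/activin EpiSCs. The first 2 groups lay next to each other and the third far below. Against ESCs, Sycp3 fell by 0.26 in CHIR/XAV EpiSCs (SE 0.08, adjusted p = 0.0205, limma) and was 16.0-fold lower in FGF2/activin EpiSCs (adjusted p = 4.92e-14, limma). The small difference lost its call without ESC replicate 1 (adjusted p = 0.0608), ESC replicate 2 (adjusted p = 0.0607) or CHIR/XAV replicate 3 (adjusted p = 0.0924, limma).

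Mael, a piRNA pathway protein that helps to silence transposons, shared this course. It read 7.63, 7.69 and 7.65 in ESCs, 7.36, 7.52 and 7.46 in CHIR/XAV EpiSCs and 4.29, 4.16 and 4.28 in FGF2/activin EpiSCs, a root mean square distance of 0.29 from Sycp3. It fell by 0.21 in CHIR/XAV EpiSCs (SE 0.07, adjusted p = 0.0201, limma) and fell by 3.41, or 10.6-fold, in FGF2/activin EpiSCs (adjusted p = 3.72e-14, limma). The small difference lost its call without ESC replicate 2 (adjusted p = 0.0619) or CHIR/XAV replicate 1 (adjusted p = 0.0766, limma).

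Rnf17, a RING and tudor-domain protein of germ granules, was the only member that was higher in an EpiSC group. Its values were 7.94, 8.09 and 7.76 in ESCs, rose to 9.41, 9.46 and 9.46 in CHIR/XAV EpiSCs and stood at 4.78, 4.73 and 4.87 in FGF2/activin EpiSCs. No groups overlapped. Rnf17 rose by 1.51, or 2.85-fold, in CHIR/XAV EpiSCs (SE 0.08, adjusted p = 1.38e-09, limma), and fell by 3.14, or 8.80-fold, in FGF2/activin EpiSCs (adjusted p = 3.88e-13, limma). Its gene lies on chromosome 14.

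Asz1, an ankyrin-repeat protein of the piRNA machinery, was at 4.22, 4.48 and 4.42 in ESCs, 4.36, 4.41 and 4.44 in CHIR/XAV EpiSCs and 4.24, 4.17 and 4.36 in FGF2/activin EpiSCs. The ESC arrays overlapped both EpiSC groups, and its differences from ESCs were 0.03 (95% interval -0.14 to 0.20) and -0.12 (-0.29 to 0.06), with no call. Taf7l, the germ cell relative of the TFIID subunit Taf7, lies on the X chromosome. It read 5.12, 5.23 and 5.65 in ESCs, 4.75, 4.93 and 5.04 in CHIR/XAV EpiSCs and 4.73, 4.51 and 4.78 in FGF2/activin EpiSCs. The third ESC array stood above the other ESC arrays. Taf7l fell by 0.43 (SE 0.12, adjusted p = 0.0111, limma) and fell by 0.66 (adjusted p = 0.000417, limma). The call in CHIR/XAV EpiSCs was lost without ESC replicate 3 (adjusted p = 0.0505) or CHIR/XAV replicate 1 (adjusted p = 0.0537, limma). Xist differed from ESCs in CHIR/XAV EpiSCs and was not called in FGF2/activin EpiSCs (-0.21, adjusted p = 0.162, limma). Between the EpiSC groups Taf7l was not called (-0.23, adjusted p = 0.150, limma). The part of sex-linked differences in the Taf7l result was not tested.

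**Figure D3:**
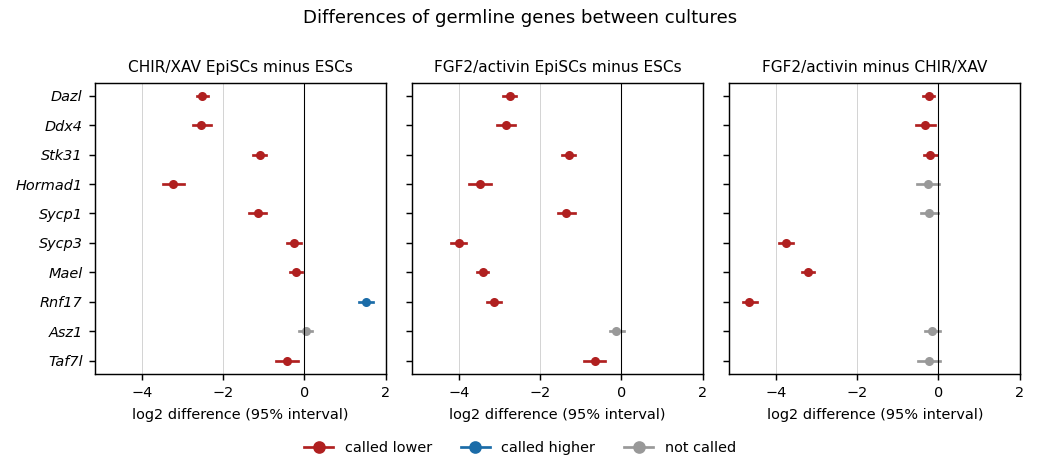
log2 differences of the 10 genes (points) with 95% intervals for each gene alone (lines) in 3 comparisons, red where limma called the gene lower, blue where higher and grey where not called. In the right panel Rnf17 (-4.65), Sycp3 (-3.75) and Mael (-3.20) stand apart from the other 7 genes, which lie between -0.32 and -0.15. Hormad1 is drawn on its brighter probe set, and its second probe set, not drawn, differed by 0.04 in that comparison.

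The comparison of FGF2/activin with CHIR/XAV EpiSCs asks which of these genes differ between groups of the same cell type. As these groups also differed in sex-linked RNA, medium and cell line cannot be told apart in it. Rnf17, Sycp3 and Mael were far lower in FGF2/activin EpiSCs, with differences of -4.65 (25.1-fold), -3.75 (13.4-fold) and -3.20 (9.20-fold) on the log2 scale and adjusted p = 3.57e-14, 4.21e-13 and 3.35e-13 (limma). In all, 6 of the 10 genes were called lower and none higher, where 20.5% of all genes were called lower, 21.1% higher and 41.6% either way. On the brighter Hormad1 probe set all 10 differences were negative, with a median of -0.25 against -0.05 over all genes. The second Hormad1 probe set differed by 0.04 and was not called. Members other than Rnf17, Sycp3 and Mael lay near or below the array medians in both EpiSC groups, where dim values cannot be told from background. Over all genes the median was 0.04 once the dimmest 40% were left out. At 2-fold or more 3 members were lower, against 1.62% of all genes, and none was higher, against 2.50%.

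The other 3 calls were small. Dazl fell by 0.24 (SE 0.07, adjusted p = 0.0113), Ddx4 fell by 0.32 (SE 0.10, adjusted p = 0.0245) and Stk31 fell by 0.20 (SE 0.07, adjusted p = 0.0459, limma). After quantile normalization none of these 3 was called, nor was any without FGF2/activin replicate 2, so that 3 members were left in each case. Ddx4 also lost its call without CHIR/XAV replicate 1 (adjusted p = 0.0625) or 2 (adjusted p = 0.105, limma), and Stk31 lost it in 11 of 18 alternatives. For the genes without a call the intervals of the difference ran from -0.52 to 0.01 for Hormad1, -0.43 to -0.01 for Sycp1, -0.50 to 0.03 for Taf7l and -0.32 to 0.03 for Asz1, unadjusted for the number of genes.

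Other genes of the same processes showed all of these courses. The counts of each list below stand against the same shares of all genes, which for CHIR/XAV EpiSCs were 24.7% (rises) and 22.1% (falls) and for FGF2/activin EpiSCs 27.8% and 33.5%, and no list was tested as a whole. Some genes, among them Sohlh2, Dnmt3l, Hormad2 and Sycp2, were counted in more than 1 list, so the counts of the lists are not separate results. Among 8 other genes of the synaptonemal complex and of meiotic cohesin, the ring that holds sister chromatids, 5 fell and 1 rose in CHIR/XAV EpiSCs (3 fell without the dimmest 40% of all genes), and 7 fell in FGF2/activin EpiSCs, with median differences of -0.24 and -0.68. Syce1, of the central element, was low in both EpiSC groups, at 6.94 in ESCs against 4.76 in CHIR/XAV and 4.65 in FGF2/activin EpiSCs. Stag3, a meiotic cohesin subunit, stood at 8.29, 7.69 and 5.45 in ESCs, CHIR/XAV and FGF2/activin EpiSCs and fell by 2.84 in the last, and Rec8, a meiotic kleisin, at 6.01, 5.83 and 4.56. Rad21l, another meiotic kleisin, was at 4.76, 4.96 and 4.95 in ESCs, 8.41, 8.25 and 8.46 in CHIR/XAV EpiSCs and 4.58, 4.36 and 4.60 in FGF2/activin EpiSCs. It was thus high in CHIR/XAV EpiSCs alone, by 3.48 over ESCs (SE 0.09, adjusted p = 4.79e-13, limma).

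Among 16 other genes of meiotic recombination and its checkpoint, 6 rose and 6 fell in CHIR/XAV EpiSCs, with a median of -0.07 (4 rose and 1 fell once the dimmest 40% of all genes were left out). In FGF2/activin EpiSCs 13 fell and none rose (9 fell and 1 rose after quantile normalization), with a median of -0.45, and 4 fell once the dimmest 40% of all genes were left out. Dmc1, the meiotic recombinase, read 6.93, 7.44 and 5.0 in ESCs, CHIR/XAV and FGF2/activin EpiSCs, and Iho1, a partner of Hormad1 in the formation of DNA breaks, 5.24, 6.57 and 4.74. Mei4, also of the break machinery, was at 7.07, 6.40 and 5.44. The X-linked recombination gene Tex11 was low in both EpiSC groups, at 5.65 in ESCs against 4.54 and 4.47.

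Genes of the piRNA pathway were called in both directions. Of 14 other measured genes 4 rose and 3 fell in CHIR/XAV EpiSCs, near the shares of all genes, with a median of -0.09, and 3 rose and 8 fell in FGF2/activin EpiSCs, with a median of -0.24, and with 2 falls once the dimmest 40% of all genes were left out. Tdrd12, a tudor-domain protein of piRNA production, had the largest difference, at 10.15, 10.07 and 10.03 in ESCs against 5.31, 5.34 and 5.41 in CHIR/XAV and 5.16, 5.15 and 5.03 in FGF2/activin EpiSCs. It fell by 4.73, or 26.5-fold (SE 0.07, adjusted p = 2.66e-15, limma), and fell by 4.97 (adjusted p = 2.28e-15, limma). The tudor-domain genes Tdrd5, Tdrkh and Tdrd7 rose in both EpiSC groups. Tdrd5 was at 6.19, 7.70 and 7.71 in ESCs, CHIR/XAV and FGF2/activin EpiSCs, Tdrkh at 4.54, 5.91 and 5.63, and Tdrd7 at 4.82, 5.10 and 6.32.

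**Figure D4:**
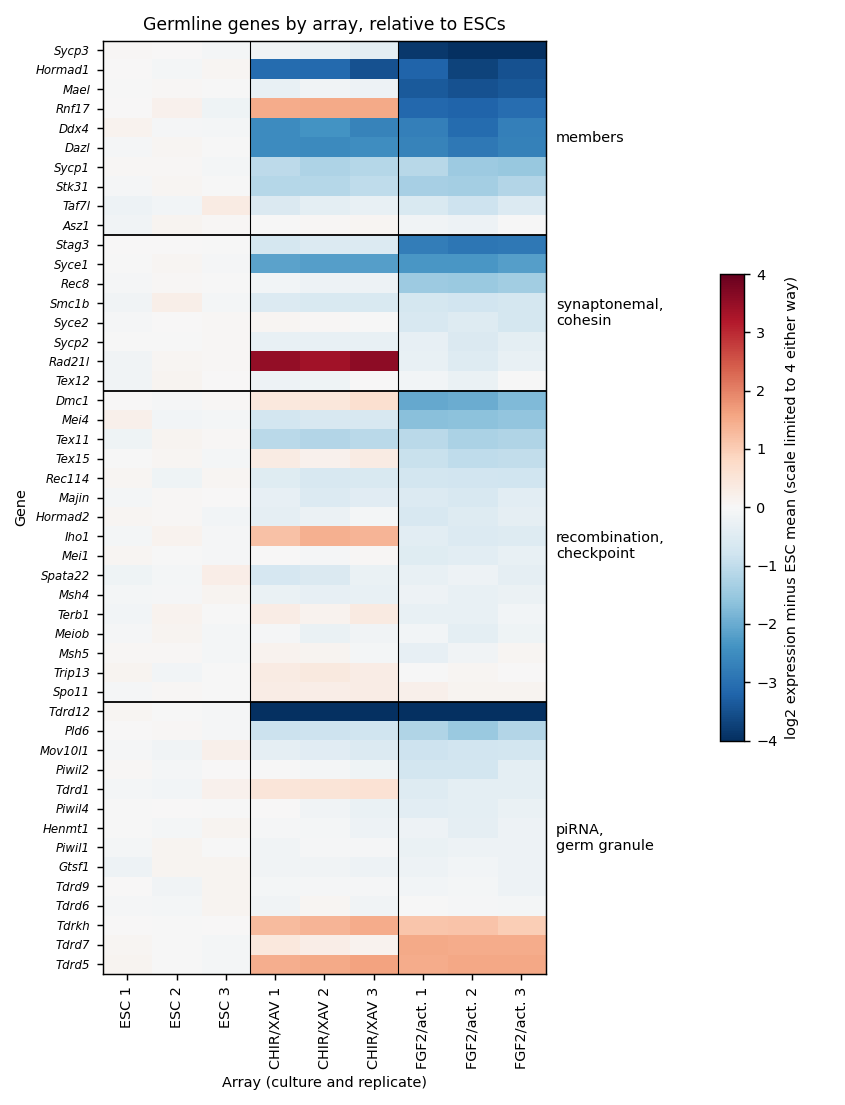
Each array's log2 expression minus the ESC mean of the gene, for the 10 members and for 38 other genes of meiosis and the piRNA pathway, with arrays as columns and colours limited to 4 units either way. Rad21l, Iho1 and Rnf17 are red on the CHIR/XAV arrays, and Tdrd5 and Tdrkh on the arrays of both EpiSC groups. Sycp3, Mael, Stag3 and Dmc1 are far bluer on the FGF2/activin arrays than on the CHIR/XAV arrays.

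Of 12 other measured genes whose promoters are known to be methylated in somatic cells, 7 fell and 2 rose in CHIR/XAV EpiSCs (4 and 1 without the dimmest 40% of genes), and 11 fell and 1 rose in FGF2/activin EpiSCs (6 and none without the dimmest 40%). Rhox9, an X-linked homeobox gene, was at 8.04 in ESCs against 5.44 and 5.26, Sohlh2, a germ cell transcription factor gene, at 7.03 against 4.63 and 4.47, and Zfp42 at 8.53 against 5.45 and 5.34 in CHIR/XAV and FGF2/activin EpiSCs. Of 13 germline regulators 9 fell and 1 rose in CHIR/XAV EpiSCs, and 10 fell and 1 rose in FGF2/activin EpiSCs (5 fell without the dimmest 40%). Meioc, needed to keep cells in meiotic prophase, was at 6.98 against 4.21 and 4.12, and Prdm14, a regulator of the naive state and of primordial germ cells, at 7.50 against 4.69 and 4.52. Among 7 measured relatives of the members 2 rose and 1 fell in CHIR/XAV EpiSCs, and 1 rose and 3 fell in FGF2/activin EpiSCs. Boll, of the Dazl family, was at 5.88, 7.13 and 5.58 in ESCs, CHIR/XAV and FGF2/activin EpiSCs.

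Among 10 measured genes that write, keep, oxidise or guard DNA methylation, 2 rose and 4 fell in CHIR/XAV EpiSCs, where 46.7% of all genes were called, and 3 rose and 6 fell in FGF2/activin EpiSCs, where 61.3% were called. Dnmt3b, a de novo methyltransferase, was highest in CHIR/XAV EpiSCs, at 8.11 in ESCs, 10.11 in CHIR/XAV and 8.88 in FGF2/activin EpiSCs. Dnmt3l, the cofactor of de novo methylation and itself a germline gene, had values of 7.68, 7.86 and 7.79 in ESCs, 6.87, 7.03 and 7.0 in CHIR/XAV EpiSCs and 5.08, 5.11 and 4.77 in FGF2/activin EpiSCs. It stepped down from group to group without overlap: against ESCs it fell by 0.81 and fell by 2.79 (SE 0.09 each).

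Tet2, which oxidises methylcytosine, fell by 3.53 in CHIR/XAV EpiSCs and fell by 3.07 in FGF2/activin EpiSCs, and Tet1 fell by 0.50 and fell by 0.94. The third enzyme of the family, Tet3, went the other way, from 5.19 in ESCs to 6.07 and 6.95, and rose by 0.88 (adjusted p = 2.78e-06) and by 1.76 (adjusted p = 1.25e-09, limma). Zfp57, which protects imprints, fell by 1.86 and fell by 1.53. The maintenance genes Dnmt1 and Uhrf1 moved little: Dnmt1 was at 9.93, 9.81 and 9.72 and Uhrf1 at 9.08, 9.23 and 8.92, and the only call against ESCs was for Dnmt1 in FGF2/activin EpiSCs (-0.21, adjusted p = 0.0136, limma). Dnmt3a was at 7.63, 7.46 and 7.89. The part of these genes in the levels of the 10 members was not tested.

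**Figure D5:**
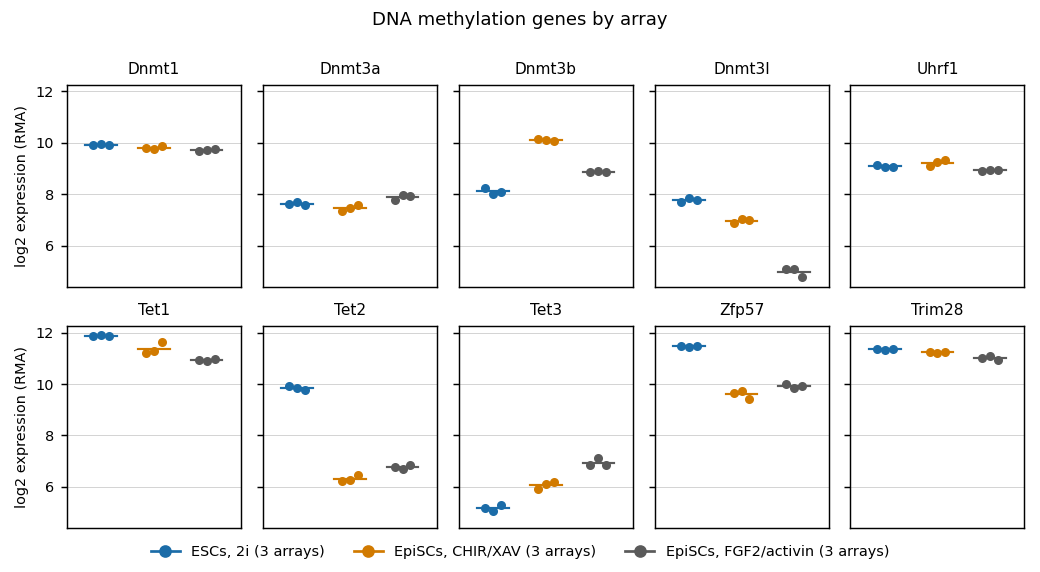
log2 expression of 10 DNA methylation genes on each array (points) with group means (lines), in ESCs (blue), CHIR/XAV EpiSCs (orange) and FGF2/activin EpiSCs (grey). Tet2 and Zfp57 are higher on the blue arrays, Dnmt3b is highest on the orange arrays, and Dnmt3l is lowest on the grey arrays, at 5.11 or below.

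Of 16 genes of the Mga and Pcgf6 complex and of histone methylation that silences germline promoters, 4 rose and 5 fell in CHIR/XAV EpiSCs, and 5 rose and 6 fell in FGF2/activin EpiSCs, none by 2-fold. These counts are near the 46.7% and 61.3% of all genes called either way. Pcgf6 fell by 0.54 and fell by 0.85, E2f6 rose by 0.66 in each group, and Rybp fell by 0.96 and fell by 0.50. Mga was at 10.36 in ESCs, 10.20 in CHIR/XAV and 10.01 in FGF2/activin EpiSCs, and the histone methyltransferase gene Setdb1 at 9.58, 9.53 and 9.34.

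Markers of whole germ cell stages were set beside these results. Of the 6 primordial germ cell markers all but Kit were already counted above as germline regulators. All 6 markers fell in CHIR/XAV EpiSCs and 5 of 6 in FGF2/activin EpiSCs, among them Kit (10.16 in ESCs, 7.29 and 6.46) and Tfap2c (9.05, 6.07 and 7.26). Their summed log2 values ranged from 43.43 to 44.18 on ESC arrays, 32.52 to 33.07 on CHIR/XAV arrays and 33.48 to 34.20 on FGF2/activin arrays. The 6 spermatid markers stayed between 4.31 and 6.18 on every array, with 1 called lower in CHIR/XAV and 2 in FGF2/activin EpiSCs. Of 8 oocyte markers 7 were never called by 2-fold, the exception being Zp3, an egg coat gene, at 7.90 in ESCs against 5.30 and 4.36, and 4 in all fell in FGF2/activin EpiSCs. Their sums ran from 41.10 to 41.71 on ESC arrays, 37.91 to 38.54 on CHIR/XAV arrays and 36.23 to 37.17 on FGF2/activin arrays. Of 5 spermatogonial markers 2 rose and 1 fell in CHIR/XAV EpiSCs and 3 fell in FGF2/activin EpiSCs, none by 2-fold, with sums of 31.04 to 31.49, 32.05 to 32.24 and 29.98 to 30.59 in the same order of groups. Of 7 feeder fibroblast markers 1 rose and 1 fell in CHIR/XAV EpiSCs and 4 rose and 1 fell in FGF2/activin EpiSCs, with sums of 37.39 to 37.56, 38.82 to 39.66 and 37.64 to 38.21. The rise in CHIR/XAV EpiSCs was that of Thy1, at 5.44, 7.21 and 5.70 in the same order of groups. The collagen genes Col1a1, Col1a2 and Col3a1 were not called there. Of 5 Sertoli or granulosa cell markers 1 rose and 1 fell in CHIR/XAV EpiSCs and 1 rose and 2 fell in FGF2/activin EpiSCs, with sums of 28.14 to 28.35, 26.10 to 26.61 and 25.80 to 26.28. The largest fall in this list was that of Dmrt1, which germ cells express too, at 8.09 in ESCs against 5.85 and 5.01, while Sox9 rose by 0.67 and 1.43 and neither Amh nor Foxl2 was called. The part of these markers in the levels of the 10 genes was not tested.

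For the 6 members that differed from ESCs by 2-fold or more in both EpiSC groups, the 2 genes outside the members with the nearest course were found by the root mean square difference of centred values over the 9 arrays, which form 3 groups. Genes with predicted or clone names were left out of this search. Dazl had Spic (0.05) and Nfatc2ip (0.11), and Ddx4 had Spic (0.12) and Tex14 (0.13). Stk31 had Slc25a31 (0.04) and Mlh3 (0.08), Sycp1 had Bcat1 (0.10) and Abcc2 (0.10), and Hormad1 had Dpp4 (0.12) and Pecam1 (0.15). Rnf17 had no such near neighbour among the genes searched: the closest were Gstp1 (0.42), at 10.64, 11.38 and 7.62 in ESCs, CHIR/XAV and FGF2/activin EpiSCs, and Dppa4 (0.56), at 8.97, 9.24 and 4.85.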

How the data were processed

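Each deposited value is a log2 expression level of 1 probe set on 1 array. The authors used Partek and RMA, per the submitters' processing notes, with versions not stated there. Detection calls were not used. Groups and replicate numbers came from the sample titles. Of 35399 probe sets 21789 carried 1 gene symbol in the probe annotation, 1621 several and 11989 none, and only those with 1 symbol were used. Names came up to date by gene ID in RefSeq, assembly GRCm38.p6, for 19856 of 19938 genes. For the 999 genes with several probe sets the brightest over the 9 arrays was kept, and Hormad1 is reported on both of its probe sets.

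All 9 arrays entered 1 limma 3.58.1 fit in R 4.3.3 (lmFit, contrasts.fit, eBayes), with no covariate and no filter, and p-values were adjusted by Benjamini-Hochberg over 19938 genes with a threshold of 0.05. On simulated data for CHIR/XAV EpiSCs against ESCs the fit recovered 80.6% of 67 genes changed by 0.5, 95.5% of 67 changed by 1 and 98.5% of 66 changed by 2, with 7 false calls. The members and lists were chosen with earlier results of these data known. Named genes are the members, up to 4 called genes per list with the largest change against ESCs, a set of repressors and DNA methylation genes, cell type markers and the nearest courses. The sex-linked genes and the promoter motifs were added after the values were seen. Alternatives were other probe set rules, normalizations, filters, limma settings, a replicate block and leaving out each array. The number of arrays limits the precision.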

Additional observations from a re-analysis of the deposited data

Results flagged for a closer look

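The 3 members with different courses in the EpiSC cultures stood out: their differences from ESCs were unlike in CHIR/XAV and FGF2/activin EpiSCs, as the direct comparison of both EpiSC groups showed (limma). Rnf17 differed by -4.65 between FGF2/activin and CHIR/XAV EpiSCs, Sycp3 by -3.75 and Mael by -3.20, each with the lower level in all 3 FGF2/activin arrays. Rnf17 rose against ESCs in CHIR/XAV EpiSCs and fell in FGF2/activin EpiSCs. Across the 18 alternatives these 3 differences kept their direction and their call. Medium and cell line cannot be told apart between the EpiSC groups, as given above.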

How the results depend on the processing

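The comparisons were recomputed under 18 alternatives, 9 of which each left out 1 array. The number of members called against ESCs stayed at 9 in FGF2/activin EpiSCs when single arrays were left out, and ranged from 7 to 9 in CHIR/XAV EpiSCs (6 to 8 lower). Both came to 7 without the dimmest 40% of genes, which removes Asz1, Stk31 and Taf7l from the table. Between the EpiSC groups 6 members were called lower as deposited, 3 after quantile normalization, and 3 to 7 when single arrays were left out, with 3 without FGF2/activin replicate 2. Of 531 member differences 502 kept their direction and side of the threshold, 24 lost a call and 4 gained one. Asz1 reversed: its difference of 0.03 for CHIR/XAV EpiSCs ran from -0.05 without ESC replicate 1 to 0.08 when single arrays were left out, with no call. Of 756 list counts 17 moved by more than 1.5 times, most of them without the dimmest 40% of genes.

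With the replicate number as a block, 9, 9 and 7 members were called in CHIR/XAV against ESCs, FGF2/activin against ESCs and between EpiSC groups, where Sycp1 gained a call (-0.22, adjusted p = 0.0445, limma). The numbers do not pair the arrays: deviations of same-numbered arrays correlated between -0.07 and 0.24, with 1 of 9 pairs above 0.1, and 3 of 9 arrays correlated best with their own number. Dim signals limit Asz1, Taf7l and Stk31 most, since background cannot be separated there.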
